A study of Mus musculus with 6 samples.

Results

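A set of 10 genes of the cardiac sarcomere was followed in fetal mouse hearts: the troponin genes Tnnt2, Tnni1, Tnni3 and Tnnc1, cardiac actin Actc1, tropomyosin Tpm1, titin Ttn, myosin-binding protein C Mybpc3, and the myomesins Myom1 and Myom2. They were taken by name, 10 of 35411 genes with Salmon estimates, and all 10 passed the filter on low counts. The hearts came from FVB/NJ wild-type mice, an inbred strain. Dams were 10 weeks old and 14 entered the study, and from gestational day 5 they spent 360 minutes a day in whole-body inhalation chambers on 6 non-consecutive days within 8 days. The sham group breathed filtered room air, and the nano-TiO2 group breathed titanium dioxide nanoparticles at a target of 12 mg/m3. Hearts were taken on gestational day 15 and pooled across fetuses of both sexes, and each group has 3 libraries made from fragmented total RNA without immunoprecipitation. The sources do not say how many litters a pool drew on, and every p-value therefore reflects the spread from pool to pool, which may be technical.

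The thin filament is a polymer of actin with tropomyosin lying along it and a troponin complex at regular intervals. Calcium binds troponin C (Tnnc1), the inhibitory subunit troponin I (Tnni1 or Tnni3) lets go of actin, and troponin T (Tnnt2) ties the complex to tropomyosin. Titin is a giant protein that runs from the Z-disc to the M-band and acts as a molecular spring, and its spring segment is shortened by splicing as the heart matures. Mybpc3 is a thick-filament protein that tunes crossbridge formation, and the myomesins crosslink thick filaments at the M-band. Fetal hearts carry the slow skeletal troponin I, Tnni1, which the cardiac form Tnni3 replaces after birth.

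Salmon had assigned 12881945 (nano-TiO2 2) to 22720009 (sham 1) estimated reads to a library, and the 10 genes took 3.28% to 4.36% of them. Haemoglobin genes took 10.6% to 23.4% of sham reads and 5.68% to 10.2% of nano-TiO2 reads. The tissue label was checked with 8 cardiomyocyte markers, all of which were tested. Their summed level was 15774 to 16109 TPM (a level corrected for transcript length) in sham libraries, against 20039 to 24207 TPM after nano-TiO2. The typical gene also rose on that scale, with a median log2 fold change of 0.47 on log2(TPM + 1). By edgeR on scaled reads, 2 of the 8 were called lower and 1 higher, against 12.8% and 15.5% of all genes tested. The median log2 fold change of the 8 was then -0.17. The 10 skeletal muscle markers summed to 137 TPM in nano-TiO2 1 and to 22.0 to 44.9 TPM in the other 5 libraries, with Myod1 and Pax7 at too few reads to test. Of the 8 erythroid markers 5 were called lower with nano-TiO2 and none higher, against 12.8% lower and 15.5% higher of all genes tested. These markers summed to 69276 to 179016 TPM in sham libraries, against 63087 to 77566 TPM after nano-TiO2. Other-tissue markers set some libraries apart. The 4 lung markers, led by Sftpc, summed to 2598 TPM in nano-TiO2 3 and 596 TPM in nano-TiO2 2, against 0.54 TPM in nano-TiO2 1 and 16.2 to 182 TPM in sham libraries. The 5 hepatocyte markers summed to 355 TPM in sham 2 and to 2.21 to 33.3 TPM in the other 5. With sham 2 and nano-TiO2 3 both left out, none of the 10 genes and none of 14019 genes was called by edgeR, although 4 and 3350 had an unadjusted p under 0.05. Whether these shifts take part in the differences below was not tested.

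The starts of some of these genes carry binding letters of known muscle regulators, shown here because the members moved in both directions. Of the 10 genes 9, all but Myom2, have a RefSeq promoter (GRCm38.p6). The 250 bases before each start were searched on both strands for the MEF2 motif, the CArG box bound by serum response factor, and CATTCC, the core of the M-CAT element bound by TEAD factors. The MEF2 letters stood before Ttn and Mybpc3 and in 2.92% of all 32851 promoters. The CArG letters stood before Actc1 and Myom1 and in 1.47% of all promoters, and CATTCC stood before Tnnt2, Tnnc1 and Tpm1 and in 12.6%. None of the 3 motifs stood before Tnni1 or Tnni3. Each window is written 5′ to 3′ on the gene's strand with the motif in capitals, and no gene held more than 1 of the 3 motifs, so none overlapped. The windows are chr2:76982679-76982738 (minus strand) for Ttn, chr2:91118029-91118088 (plus) for Mybpc3, chr2:114052888-114052947 (minus) for Actc1 and chr17:71019433-71019492 (plus) for Myom1.
Ttn: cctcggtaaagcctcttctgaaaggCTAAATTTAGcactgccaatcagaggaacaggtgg
Mybpc3: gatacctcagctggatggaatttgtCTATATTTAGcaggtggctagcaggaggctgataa
Actc1: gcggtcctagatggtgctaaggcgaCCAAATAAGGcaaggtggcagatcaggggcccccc
Myom1: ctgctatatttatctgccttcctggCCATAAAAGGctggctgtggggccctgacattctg
The motifs begin 166, 90, 47 and 99 bases before the start in Ttn, Mybpc3, Actc1 and Myom1. The MEF2 pair holds 1 gene called higher and 1 called lower, and the CArG pair holds 1 called lower and 1 not called. Of the 3 genes with CATTCC, Tnnc1 was called lower and Tnnt2 and Tpm1 were not called, and all 3 had log2 fold changes below 0.

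The main comparison asked how the genes differed between exposed and sham hearts. Relative to the typical gene, Ttn was higher in nano-TiO2 hearts, while Tnni1, Tnnc1, Actc1 and Mybpc3 were lower and the other 5 were not called. The test was edgeR's quasi-likelihood test on estimated reads summed per gene, with TMM scaling and an adjusted p under 0.05 over all genes tested. Across those 13928 genes 28.2% were called, 15.5% higher and 12.8% lower, so a call is common in these libraries. The median log2 fold change was -0.51 over the 10 genes and -0.01 over all genes. The groups did not overlap in CPM (estimated reads relative to a TMM-scaled library size) for 7 of the 10 genes, against 45.7% of all genes. In bulk hearts, fewer cardiomyocytes and less RNA per cardiomyocyte cannot be told apart, nor can either be told from effects of scaling or transcript length. The cause of these calls was not tested.

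**Figure D1:**
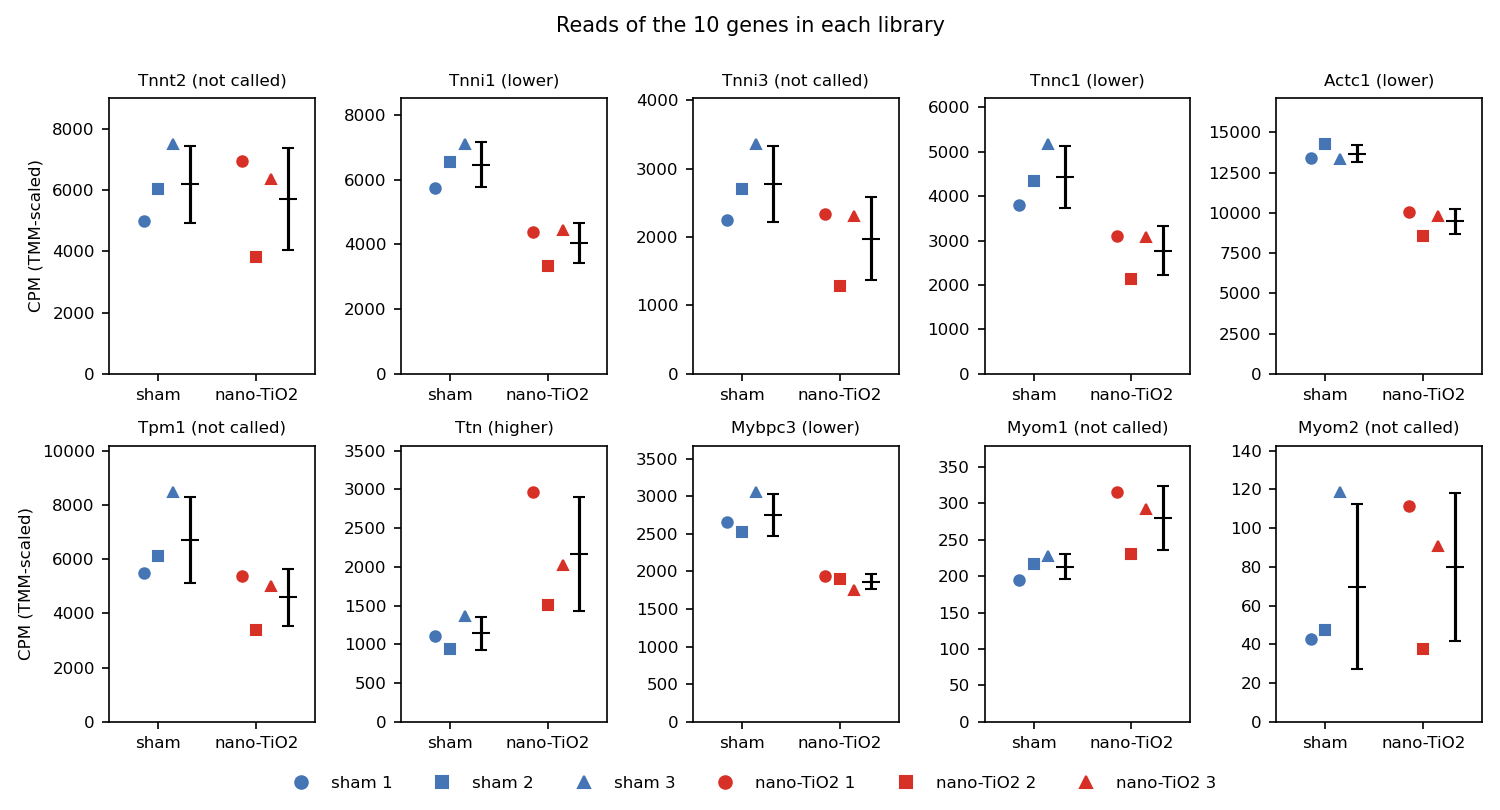
Scaled read counts (CPM) of the 10 genes in each library, sham in blue and nano-TiO2 in red. Each marker shape is a library number (libraries were treated as unpaired), and bars are mean and SD, n = 3. Ttn lies higher in all 3 nano-TiO2 libraries and Tnni1, Tnnc1, Actc1 and Mybpc3 lie lower in all 3; on TPM, Actc1 and Mybpc3 have the opposite sign and Tnni1 and Tnnc1 stand at 0.00 and -0.01.

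Troponin C, the calcium sensor, stood at 3802, 4335 and 5181 CPM in sham 1, 2 and 3 and at 3106, 2131 and 3085 CPM in nano-TiO2 1, 2 and 3. All 3 exposed libraries lay below all 3 sham libraries, with nano-TiO2 2 lowest. The log2 fold change of Tnnc1 was -0.68 ± 0.19 (SE, edgeR adjusted p = 0.0303). The call was lost without sham 1 (edgeR adjusted p = 0.0505), sham 2 (0.0836), sham 3 (0.0744), nano-TiO2 1 (0.0655) or nano-TiO2 3 (0.0668).

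The fetal inhibitory subunit Tnni1 fell from 5732, 6531 and 7110 CPM in the sham libraries to 4374, 3345 and 4447 CPM in the nano-TiO2 libraries. The groups did not overlap, and nano-TiO2 2 was again lowest. Its log2 fold change was -0.67 ± 0.16 (SE, edgeR adjusted p = 0.0186), and the call was lost without sham 2 (0.0672), nano-TiO2 1 (0.0565) or nano-TiO2 3 (0.0519). The postnatal form Tnni3 had 2255, 2710 and 3365 CPM in sham and 2336, 1285 and 2314 CPM in nano-TiO2 libraries. Here the groups overlapped, since nano-TiO2 1 and 3 lay just above sham 1. Tnni3 was not called (log2 fold change -0.49 ± 0.25 SE, edgeR adjusted p = 0.168).

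Length-corrected levels place the fetal form above the postnatal form in every library. Tnni1 averaged 5710 ± 763 TPM in sham and 5692 ± 228 TPM in nano-TiO2 hearts, and Tnni3 averaged 2860 ± 636 and 3186 ± 644 TPM (SD, n = 3 each). The ratio of Tnni1 to Tnni3 TPM was 2.197, 2.07 and 1.80 in sham 1, 2 and 3. It was 1.61, 2.24 and 1.65 in nano-TiO2 1, 2 and 3, so that 2 exposed libraries held the lowest ratios and the other held the highest. The mean log2 ratio was 1.01 ± 0.15 in sham and 0.86 ± 0.27 in nano-TiO2 hearts (SD, n = 3 each), a difference of -0.15. An exact two-sided permutation test gave p = 0.40, where the smallest p this design allows is 0.10. Leaving out each library in turn gave differences of -0.31 to -0.07, so a shift of the isoform balance was not resolved from the spread between pools.

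**Figure D2:**
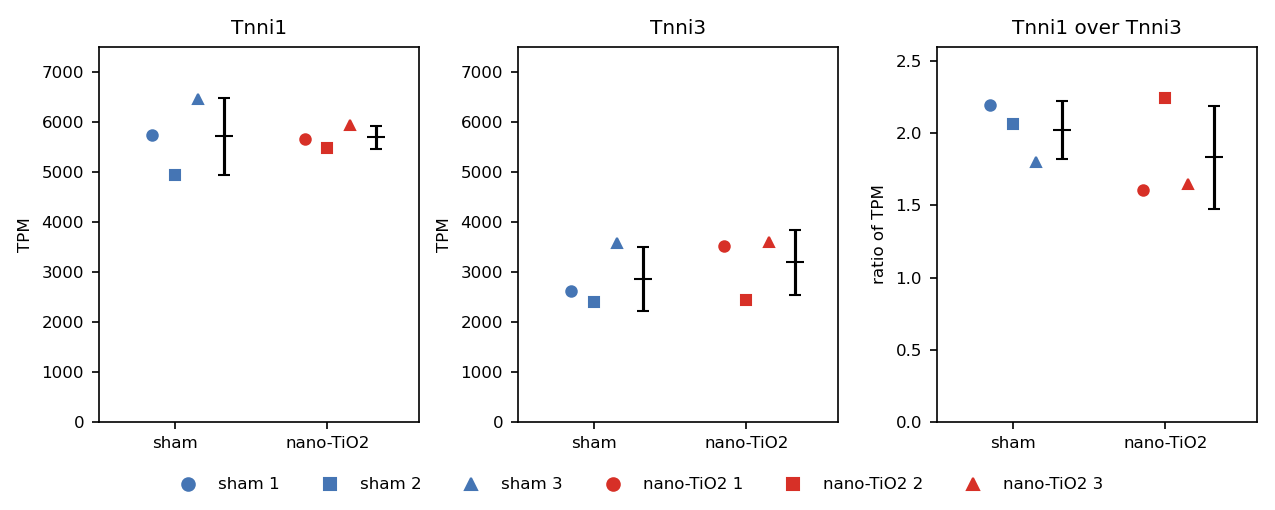
TPM of Tnni1 and Tnni3 and their ratio in each library (sham in blue, nano-TiO2 in red; bars are mean and SD, n = 3). The ratio runs from 1.61 to 2.24 over both groups, with the exposed libraries at both ends of that range.

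Troponin T, the tropomyosin-binding subunit, overlapped between groups. Tnnt2 had 5004, 6045 and 7522 CPM in sham and 6962, 3804 and 6361 CPM in nano-TiO2 libraries, a log2 fold change of -0.12 ± 0.24 (SE, edgeR adjusted p = 0.75). On library totals alone its sign was positive (0.29), and on log2(TPM + 1) it was called higher (0.51, limma adjusted p = 0.0405).

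Cardiac actin was the most abundant of the 10 genes in CPM and in TPM. Actc1 had 13413, 14297 and 13352 CPM in sham and 10039, 8585 and 9821 CPM in nano-TiO2 libraries. Libraries within each group lay close together and the groups stood well apart. The log2 fold change was -0.53 ± 0.13 (SE, edgeR adjusted p = 0.0208), lost when sham 1 (0.079), sham 2 (0.0875), nano-TiO2 3 (0.0754) or nano-TiO2 1 (0.0728) was left out. Actin genes share near-identical coding sequence, so the split of reads between Actc1 and its copies Acta1 and Acta2 is uncertain.

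Tropomyosin behaved like actin in size but with more spread. Tpm1 had 5498, 6120 and 8477 CPM in sham and 5362, 3404 and 5003 CPM in nano-TiO2 libraries, with nano-TiO2 1 only just below sham 1. It was not called by edgeR (log2 fold change -0.55 ± 0.22 SE, adjusted p = 0.0965), and DESeq2 called it lower (-0.55, adjusted p = 0.0454).

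Mybpc3, the thick-filament regulator, had 2658, 2526 and 3057 CPM in sham and 1936, 1898 and 1748 CPM in nano-TiO2 libraries. The exposed libraries were the tightest set among the lower genes, with a mean of 1861 ± 99.3 CPM against 2747 ± 277 CPM (SD, n = 3 each). Its log2 fold change was -0.56 ± 0.13 (SE, edgeR adjusted p = 0.0166), lost without sham 1 (0.0597), nano-TiO2 1 (0.06) or nano-TiO2 3 (0.0732).

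Titin went the other way. Ttn had 1108, 946 and 1372 CPM in sham 1, 2 and 3 and 2967, 1508 and 2019 CPM in nano-TiO2 1, 2 and 3. All exposed libraries lay above all sham libraries, with nano-TiO2 1 far ahead and nano-TiO2 2 not far above sham 3. Nano-TiO2 1 is also the library with the most skeletal muscle marker RNA (137 TPM), whose part in the Ttn level was not tested. The log2 fold change was 0.92 ± 0.25 (SE, edgeR adjusted p = 0.028). The call was lost without sham 1 (0.0606), sham 2 (0.0801), nano-TiO2 1 (0.0891, with a log2 fold change of 0.62) or nano-TiO2 3 (0.068).

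The M-band genes were the least abundant of the set in CPM. In TPM, Ttn averaged less than Myom1 in sham hearts (65.6 and 73.9) and more in nano-TiO2 hearts (179 and 152). Myom1 had 195, 216 and 228 CPM in sham and 315, 231 and 291 CPM in nano-TiO2 libraries, which did not overlap, and was not called (log2 fold change 0.39 ± 0.14 SE, edgeR adjusted p = 0.074). It was called higher with upper-quartile factors (0.45, adjusted p = 0.043) and with the reads of the bin table (0.46, edgeR adjusted p = 0.04), where 26.6% of genes were called, 15.4% higher and 11.2% lower. Myom2, an adult-type M-band protein, had 42.9, 47.3 and 119 CPM in sham and 111, 37.7 and 90.8 CPM in nano-TiO2 libraries. Sham 3 was the highest library and nano-TiO2 2 the lowest, and Myom2 was not called (0.20 ± 0.52 SE, edgeR adjusted p = 0.8).

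The direction of the lower genes depends on the scale. TMM sets the typical gene to no change, and dividing by library totals alone moved the median of all genes to 0.41. On that scale Ttn (1.31) and Myom1 (0.80) were called higher and none of the 10 lower, against 30.7% of all genes higher and 0.359% lower, with Tnni1 at -0.26, Tnnc1 at -0.27, Actc1 at -0.11 and Mybpc3 at -0.15. On log2(TPM + 1), where the median of all genes was 0.47, limma called Tnnt2 (0.51), Ttn (1.44) and Myom1 (1.02) higher and none lower, against 38.0% of all genes higher and 0.134% lower. On both scales the members' share of higher calls is no larger than that of all genes. There Actc1 (0.14), Mybpc3 (0.11), Tpm1 (0.11) and Tnni3 (0.16) had a positive sign, Tnni1 stood at 0.00 and Tnnc1 at -0.01. So the measured fact is a fall of Tnni1, Tnnc1, Actc1 and Mybpc3 against the typical gene, not in their share of TPM.

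Length and base composition went with the direction of some of these genes but not of all. Ttn had a mean transcript length of 13744 bases, weighted by TPM, and only 16 tested genes were at least as long. This mean is drawn down by short models such as Ttn-215 (2159 bases), while Ttn-201 (81999 bases) took 56.9% of the gene's sham reads. The length trend removed from Ttn below therefore rests on few genes and on this weighting. Tnnc1, Tnni3 and Tnni1 were among the shortest 4.62%, 7.82% and 10.6% of genes. Mybpc3, called lower, was longer than 83.4% of genes. GC content was above that of 38.8% of genes for Ttn and 57.2% for Actc1. For Tnnc1, Tnni1 and Mybpc3 it was above that of 66.0%, 80.5% and 81.3%. After removal of the trends with length and GC content from every library, none of the 10 genes was called (2.63% of all genes were, 1.23% higher and 1.41% lower). Ttn then stood at 0.27 ± 0.21 (SE, edgeR adjusted p = 0.481), Tnni1 at -0.27, Tnnc1 at -0.20, Actc1 at -0.37 and Mybpc3 at -0.47. Of the 10 genes, 2 had an unadjusted p under 0.05 in that fit, as had 3127 of all 13928 genes. The values of Ttn, Tnni1 and Tnnc1 shrank by more than 1.5 times, those of Actc1 and Mybpc3 by less.

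**Figure D3:**
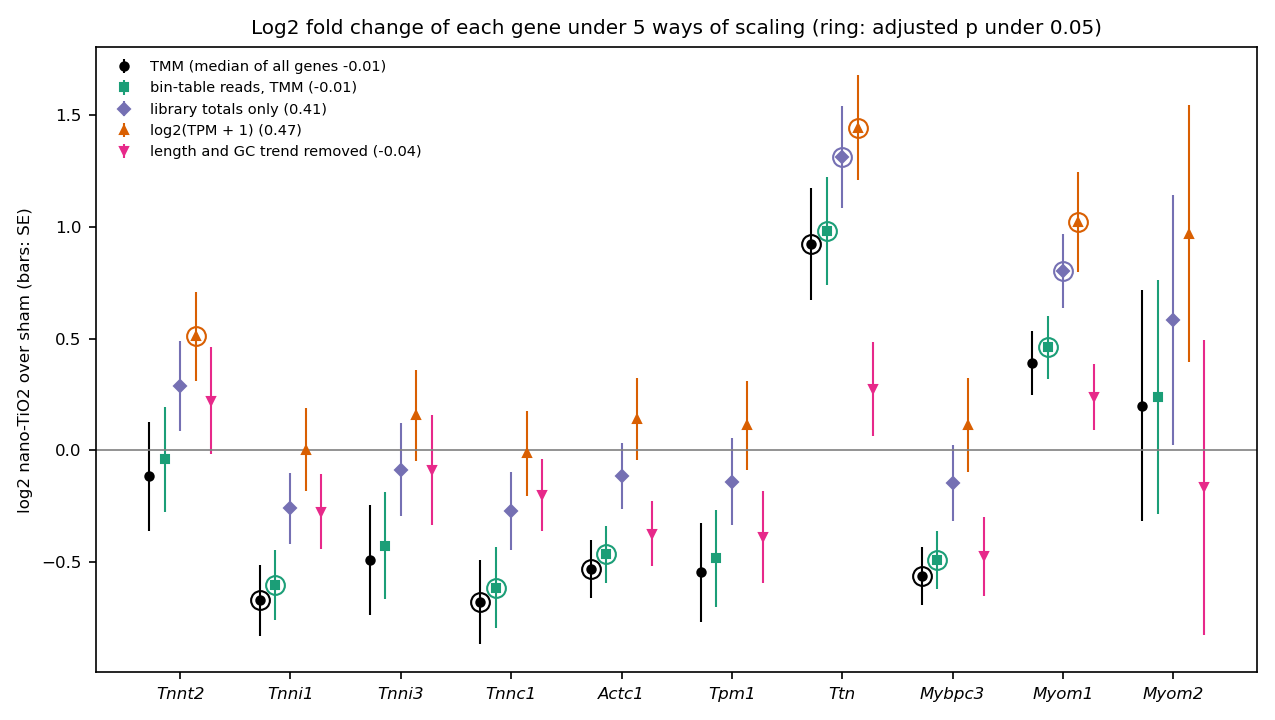
Log2 fold change (nano-TiO2 over sham, with SE) of each gene under 5 ways of scaling, the median of all genes in the key; rings mark an adjusted p under 0.05. Ttn is above 0 in all 5, while Actc1 and Mybpc3 are below 0 except on log2(TPM + 1), where they stand at 0.14 and 0.11, and Tnni1 is there at 0.00.

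Within a library, ratios to Actc1 need no scaling between libraries, but they keep each library's trends with length and GC content. Ttn averaged 13744 bases and Actc1 1473. With those trends removed, their log2 fold changes were 0.27 and -0.37, against 0.92 and -0.53 in the main fit. The log2 ratio of Ttn to Actc1 TPM was -6.92 ± 0.23 in sham and -5.60 ± 0.29 in nano-TiO2 hearts, and that of Myom1 to Actc1 was -6.72 ± 0.20 and -5.83 ± 0.26 (SD, n = 3 each). Both were higher without overlap, by 1.32 and 0.89 (exact two-sided permutation p = 0.10 for each, the smallest possible, and 0.45 adjusted over the 9 ratios to Actc1). The ratios of Tnni1, Tnni3, Tnnc1, Tpm1 and Mybpc3 to Actc1 differed by -0.15 to 0.02, with exact two-sided permutation p-values of 0.30 to 1.0. Tnnt2 and Myom2 differed by 0.37 and 0.89 with overlapping groups (exact two-sided permutation p = 0.20 for each).

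Transcript estimates gave no single transcript that stood out. Of 100 transcripts of the 10 genes 65 were tested, and none was called higher or lower by edgeR (2.02% of all 30406 transcripts were, 0.921% higher and 1.1% lower) or changed in usage (0.335%, edgeR's diffSpliceDGE). Actc1, Tnnc1, Tpm1, Mybpc3 and Tnni3 were each carried almost wholly by their main coding transcript, with 92.9% (Tnni3-201) to 99.99% (Actc1-201) of the gene's TPM. Tnnt2 was spread over 6 transcripts of at least 5%, led by Tnnt2-205 with 34.0 ± 0.70% in sham and 33.4 ± 0.95% in nano-TiO2 hearts (SD, n = 3 each). Tnni1-207 held 74.5 ± 0.40% and 72.8 ± 1.19% of Tnni1 TPM. Myom1 TPM was led by Myom1-208, a processed transcript of 941 bases without a coding sequence, with 68.6 ± 6.02% in sham and 66.3 ± 6.48% in nano-TiO2 hearts, so the TPM of Myom1 is mainly that of a short RNA.

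Ttn shows the same gap between reads and TPM. Ttn-201, a full-length form of 81999 bases that skips most spring exons, took 56.9% of the gene's estimated reads in sham and 60.4% in nano-TiO2 hearts but only 9.57% of its TPM. Ttn-205, a long form of 101674 bases that lacks the N2B exon, took 16.2% and 12.6% of the reads. The short fragment Ttn-215 (2159 bases) held 42.4% of the TPM. The 4 Ttn transcripts of at least 5% had log2 fold changes of 0.78 (Ttn-215), 0.81 (Ttn-213), 0.95 (Ttn-209) and 0.97 (Ttn-201), with edgeR adjusted p from 0.06 to 0.16. Reads of a fragmented library rarely span the distance that tells these forms apart, so the shares are estimates.

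The series also holds a table of reads in steps of 25 bases along each gene, which allows the rise of Ttn to be placed. Of its bins 245114 had a mean of at least 10 and were tested by limma on log2(value + 1); 5.62% were called, 1.14% higher and 4.48% lower, and their median log2 difference was -0.25. Among 845 tested bins of Ttn, 195 were called higher and none lower, 832 lay above 0, and the median was 0.94. Ttn has 4693 bins, and the filter used the mean over both groups. A bin of Ttn can therefore have passed only because the nano-TiO2 values were high, which shapes these counts and the median. Bins of 1 gene are also not independent of each other. Tnni1 had 41 of 53 tested bins called lower, Tnnc1 21 of 28, Actc1 10 of 57 and Mybpc3 9 of 160, with none higher in these 4 genes. With edgeR and TMM on the same reads, a change of both test and scaling, 1 bin was called lower, in Tnni1, and 258 Ttn bins higher. Over all bins that fit called 1.75% higher and 0.182% lower. No bin of the 10 genes was called higher once sham 1 was left out, nor without sham 2, nano-TiO2 1 or nano-TiO2 3.

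The Ttn difference was above 0 along the whole message and clearest towards its ends. With the bins cut into 10 equal stretches from the 5′ to the 3′ end, the log2 ratio of group means was 1.04 in stretch 1, 0.65 in stretch 7 and 1.26 in stretch 10. Stretch 10 had 7.87, 6.85 and 9.68 reads per bin (over the table's size factor) in the sham libraries, against 26.4, 12.5 and 19.6 after nano-TiO2. Stretch 1 had 8.38, 7.03 and 9.25 in the sham libraries, against 22.6, 12.3 and 15.9. The groups did not overlap in stretches 1 to 4, 9 and 10, and overlapped in stretches 5 to 8. The log2 ratio of stretch 10 to stretch 1 was -0.02 ± 0.08 in sham and 0.18 ± 0.14 in nano-TiO2 hearts (SD, n = 3 each), and the difference of 0.20 had an exact two-sided permutation p of 0.20 (smallest possible 0.10).

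**Figure D4:**
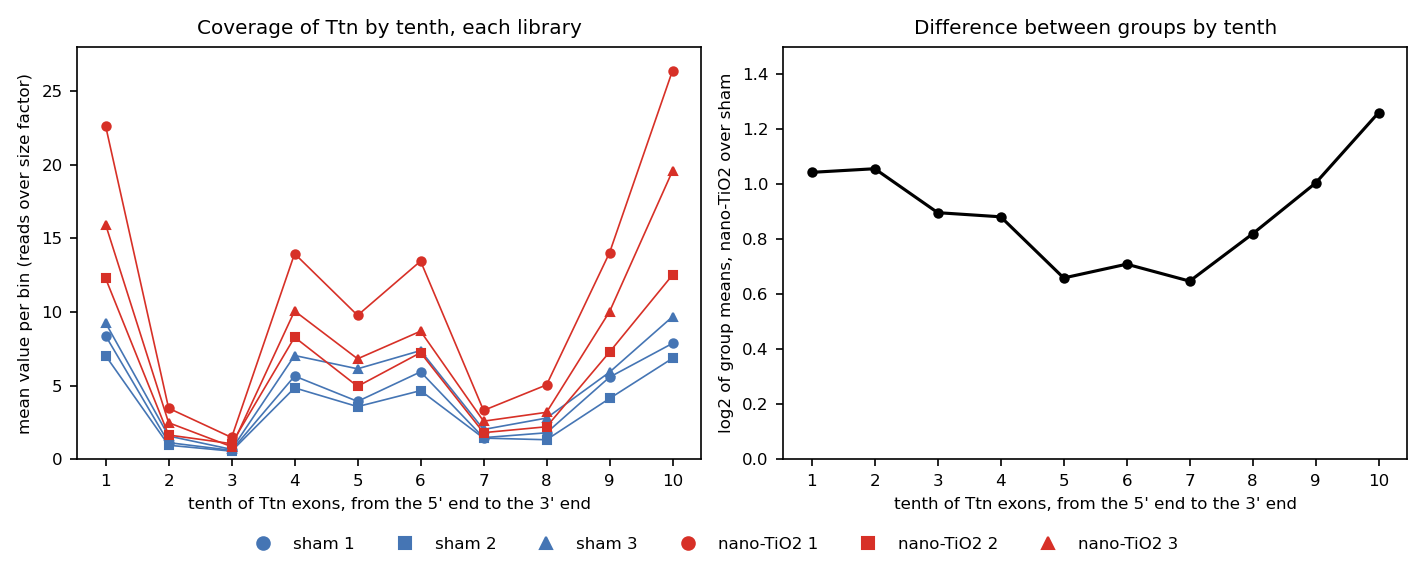
Left, mean reads per bin (over the table's size factor) in 10 equal stretches of the Ttn exons from the 5′ to the 3′ end, in each library (sham in blue, nano-TiO2 in red). Right, the log2 ratio of the group means, which lies between 0.65 and 1.26 in every stretch and is highest at the 3′ end.

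Exon structure divides titin by function. The counts of tested and called bins below carry the limit of the bin filter given above. The 42 exons at the 5′ end, up to the exon that ends the short novex-3 form Ttn-202, encode the Z-disc part and the start of the I-band. They had 7.28 ± 1.01 reads per bin in sham and 15.0 ± 4.63 in nano-TiO2 hearts (SD, n = 3 each), with 61 of 174 tested bins called higher. The N2B exon, a spring element of the cardiac forms, is 2646 bases long and had 1.84, 1.24 and 2.51 reads per bin in sham and 5.68, 2.39 and 3.90 in nano-TiO2 libraries, which overlapped. The longest run of exons that Ttn-201 skips, 154 spring exons, had 3.38 ± 0.59 and 6.26 ± 1.67 reads per bin, with 31 of 180 tested bins called higher. The next 107 exons, up to the longest exon, are the largest stretch at 29232 bases and had 4.49 ± 1.13 and 7.19 ± 2.39 reads per bin, the smallest log2 ratio of these stretches (0.68). Their groups overlapped, and 4 of 203 tested bins were called higher. The longest exon, 17106 bases of the A-band part, had 1.65 ± 0.62 and 2.82 ± 1.15 reads per bin, which overlapped, and none of its 3 tested bins was called. The 38 exons from there to the 3′ end, which complete the A-band and encode the M-band part, had 6.94 ± 1.19 and 15.6 ± 5.38, with 99 of 285 tested bins called higher.

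Relative use of the spring exons was compared within libraries. The log2 ratio of the skipped spring exons to the longest exon was 1.09 ± 0.29 in sham and 1.19 ± 0.20 in nano-TiO2 hearts (SD, n = 3 each; difference 0.10, exact two-sided permutation p = 0.60). The ratio of the N2B exon to the longest exon was 0.19 ± 0.10 and 0.49 ± 0.12 (difference 0.30, exact two-sided permutation p = 0.10, the smallest possible). The novex-3 exon stood at 0.40 ± 0.15 and 0.80 ± 0.19 reads per bin, and its log2 ratio to the 5′ exons differed by 0.05 (exact two-sided permutation p = 0.80). These 3 ratios and their zones were chosen after the values were seen. Rbm20, the splicing factor that shortens titin, was not called (log2 fold change 0.35, edgeR adjusted p = 0.12).

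In Tnnt2, Tnni3, Tnnc1 and Myom1, bins that only retained-intron models cover behaved unlike the coding exons of the same gene. Retained-intron models are annotated RNAs that keep intron sequence, so these bins lie outside the spliced message. Such bins of Tpm1 and Myom2 were below the minimum level set for this comparison. In Tpm1 they went the same way as its coding bins (log2 ratios of group means -0.52 and -0.50). In Myom2 they rose more than its coding bins (1.87 and 0.20). In Tnnt2 the intron bins had 4.41, 3.28 and 4.78 reads per bin in sham and 10.3, 7.16 and 8.60 in nano-TiO2 libraries. The log2 ratio of group means was 1.06 for Tnnt2. Its coding bins had 2153 ± 460 and 2041 ± 595 reads per bin (SD, n = 3 each). As a percentage of coding bins, intron bins stood at 0.197 ± 0.049% in sham and 0.440 ± 0.083% in nano-TiO2 hearts for Tnnt2 (SD, n = 3 each). The same percentages were 0.169 ± 0.041% and 0.502 ± 0.061% for Tnni3, and 0.176 ± 0.030% and 0.555 ± 0.081% for Tnnc1. For Myom1 they were 6.01 ± 0.10% and 10.8 ± 1.59%. The groups did not overlap in any of the 4 genes, and the exact two-sided permutation p was 0.10 for each, the smallest possible.

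Many other genes showed the same. Among 166 genes with enough bins of both kinds, the log2 ratio of intron to coding bins differed by a median of 0.76, and it was higher without overlap in 52.4% (the intron bins alone in 45.2%). Over these genes the median log2 ratio of nano-TiO2 to sham was 0.56 for intron bins and -0.41 for coding bins. Of the 8 Tnnt2 bins called higher by limma, 7 lay in the stretch covered only by the retained-intron model Tnnt2-215, where the mean went from 6.96 ± 1.31 to 13.9 ± 2.49 reads per bin (SD, n = 3 each). The source of these reads was not tested, and the comparison was chosen after the values were seen.

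**Figure D5:**
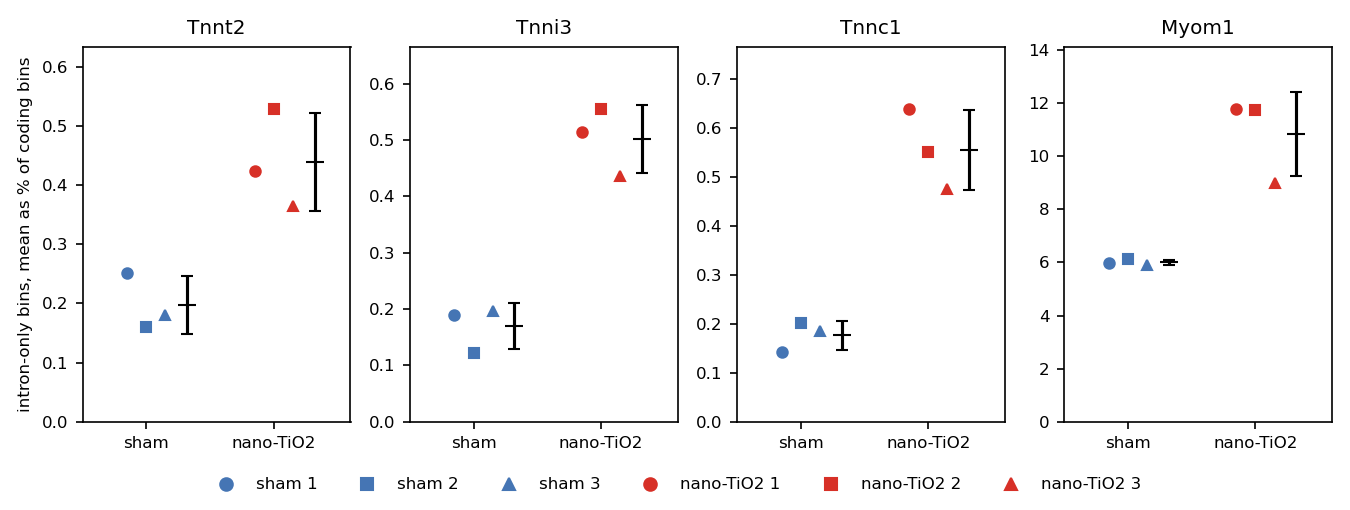
Mean reads per bin in retained-intron stretches as a percentage of that in coding exons, for Tnnt2, Tnni3, Tnnc1 and Myom1 in each library (sham in blue, nano-TiO2 in red; bars are mean and SD, n = 3). All 3 nano-TiO2 libraries lie above all 3 sham libraries in each gene, with levels under 1% of coding exons in the troponin genes and between 5.91% and 11.8% in Myom1.

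Tpm1 makes muscle and non-muscle forms by swapping exons, including the last. The main form, Tpm1-205, held 96.4 ± 0.63% of Tpm1 TPM in sham and 95.7 ± 1.00% in nano-TiO2 hearts (SD, n = 3 each). Bins inside it went from 2470 to 1732 reads per bin, a log2 ratio of -0.51. The last exon shared by 10 other Tpm1 transcripts had 28.1, 20.2 and 17.8 reads per bin in sham and 17.6, 28.3 and 27.5 in nano-TiO2 libraries, which overlapped (log2 ratio 0.15). None of the 97 tested Tpm1 bins was called in either direction by limma, and edgeR called none. By limma 50 of them had an unadjusted p under 0.05. Bins of 1 gene are not independent, and the same share over all bins was not worked out.

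Neighbouring genes touch the members little. In GENCODE M21, Tnni3 shares 86 exon bases with Dnaaf3 on the same strand, Myom1 shares 207 with Myl12a on the other strand, and Ttn shares 453 with the antisense gene Gm13938. These are 4.17%, 1.98% and 0.39% of the members' exon bases.

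Few relatives of the thin filament genes were called. Of 9 tested genes (other troponins, actins and tropomyosins), 1 was called higher and 1 lower, against 15.5% and 12.8% of all genes tested. The median log2 fold change of the 9 was -0.07. Tpm4, a tropomyosin of non-muscle cells, rose from 141 ± 13.3 CPM to 202 ± 22.0 (SD, n = 3 each; edgeR adjusted p = 0.0223), and Acta2, smooth muscle actin that the early heart also makes, fell from 2278 ± 249 CPM to 1375 ± 40.5 (edgeR adjusted p = 0.00869). Of the 11 tested genes of thin filament length and assembly none was called higher and 1 lower, again against 15.5% and 12.8% of all genes. That gene was Xirp1, an actin-binding protein of the intercalated disc, with 246 ± 15.4 and 174 ± 15.1 CPM. Tmod1 and Lmod2, whose products act at the pointed end of actin filaments, were not called, with log2 fold changes of 0.33 and 0.32.

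Genes whose products bind or splice titin were called lower more often than higher, 5 against 1 of 17 tested. Of all genes tested, 12.8% were called lower and 15.5% higher. Obsl1, which links titin at the M-band, fell from 310 ± 12.9 CPM to 205 ± 27.2, and the methyltransferase Smyd2 fell from 319.6 ± 20.2 CPM to 218 ± 23.7 (SD, n = 3 each). Fhl1, a LIM protein that binds the titin spring, rose from 93.4 ± 10.9 CPM to 142 ± 23.1. The other lower genes were the Z-disc crosslinker Actn2 (log2 fold change -0.55), Tcap, which caps titin at the Z-disc (-0.53), and the small heat shock protein Cryab (-0.49). Each of the lower genes of this list had a higher mean TPM in nano-TiO2 hearts.

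Of 13 tested relatives of the myosin-binding and M-band genes, 3 were called lower and 1 higher, against 12.8% and 15.5% of all genes tested. The lower genes were the myosin light chains Myl2, Myl3 and Myl4, with log2 fold changes of -0.68, -0.79 and -0.61. Nbr1, an autophagy receptor in the titin kinase complex, rose from 24.9 ± 5.87 CPM to 52.2 ± 11.5 (SD, n = 3 each), with an edgeR adjusted p of 0.0129. All 3 genes called higher in these 4 lists were also higher in TPM. Of the 10 called lower, all were lower per library total, but 7 had a higher mean TPM in nano-TiO2 hearts and 3 (Acta2, Myl2 and Myl3) a lower one.

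Some genes shared a member's profile over the 6 libraries, measured as the root mean square difference of centred log2 CPM among the 6294 genes averaging 20 CPM or more. Nearest to Ttn were Capn7 (0.073), a calpain protease, Smim10l1 (0.086) and Topors (0.089), a ubiquitin ligase. Nearest to Tnni1 were the gene model Gm5436 (0.031) and the complex I subunit Ndufa13 (0.033). Nearest to Tnni3 were Cox6a2 (0.048), the heart and muscle form of a cytochrome oxidase subunit, Hhatl (0.063) and the small heat shock protein Hspb6 (0.070).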

How the data were processed

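The groups came from the titles of 6 input libraries of an m6A study. Salmon made the estimated counts of reads per transcript, which the authors deposited unscaled, and the TPM beside them, per the file headers. The series table is a signal per bin: the authors' deposited values are whole reads (100% within 0.001) divided by 1 size factor per library. HISAT2 2.2.1, Salmon 1.5.2, DESeq2 1.34.0 and GRCm39 are named, with no role, in the submitters' processing notes. How the series table was counted, and with which strand option, is not given in the sources used here.

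By ID, 115636 of 116747 transcripts matched GENCODE M21 (GRCm38), used for names, classes and exons. Estimated counts were summed per gene and rounded. Genes and transcripts were tested with edgeR 4.0.16 (robust quasi-likelihood, group only, TMM, filterByExpr), bins with limma 3.58.1, ratios with exact permutation tests. Alternatives, with DESeq2 1.42.0 among them, and simulated counts were also run. The biological coefficient of variation was 23.9%.

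Bin positions ascend along the genome on both strands. Values fitted the exon models best when moved towards the 3′ end by 100 bases on the plus and 150 on the minus strand (median r over genes 0.87 and 0.91, against 0.35 and 0.25 unmoved), and were so moved before exons were assigned. Ttn's table is 509 bases longer than M21, within the spring exons. Retained-intron bins lie outside every other model by 15 bases, in genes with at least 10 bins of each kind and means of at least 10 (coding) and 0.5 (intron).

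The members, 4 pathway lists and 9 marker lists were chosen with earlier results of these data known. Named genes were the members, up to 2 rises and 2 falls per pathway list, the 3 nearest profiles of Ttn, Tnni1 and Tnni3, and transcripts of at least 5% of a gene's TPM. A profile near Tnni1 is not reported here. Others (Actn2, Cryab, Tcap, Tmod1, Lmod2, Rbm20, Myl4) were named after their values were seen. Endothelial, epicardial and fibroblast markers (1 each) and smooth muscle markers (Myocd) were called higher, 1 smooth muscle marker (Acta2) and 2 cardiomyocyte markers lower, 1 cardiomyocyte marker (Ryr2) higher, and no hepatocyte or lung marker was called, although single libraries stood apart in them.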

Additional observations from a re-analysis of the deposited data

How the results depend on the processing

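Among the 10 genes, 1 higher and 4 lower calls were unchanged with RLE factors, limma-voom, no filter, a stricter filter, and mitochondrial, haemoglobin and rRNA genes left out. Higher calls numbered 2 with upper-quartile factors, with library totals only, with the reads of the series table and with those on library totals (added after seeing the data), 3 on log2(TPM + 1) and log2(TPM + 0.1), and 0 after removal of the trends with length and GC. Lower calls numbered 0 with library totals only, on both TPM scales, with the trend removed and with series-table reads on library totals, and 2 with the replicate block. Leaving out each library gave 0 to 2 higher and 0 to 4 lower calls, and 0 of each without sham 2 and nano-TiO2 3 together, a fit in which no gene passed (3350 of 14019 had an unadjusted p under 0.05, as had 4 of the 10). Signs turned for Tnnt2 with library totals (0.29), series-table reads on library totals (0.39), both TPM scales (0.51), the trend removed (0.22), without sham 3 (0.08) and without nano-TiO2 2 (0.10); single-library omissions gave -0.29 to 0.10 for Tnnt2 and -0.12 to 0.86 for Myom2. They turned on both TPM scales for Tnni1 (0.0035), Tnni3 (0.16), Actc1 (0.14), Tpm1 (0.11) and Mybpc3 (0.11), and for Myom2 with the trend removed (-0.17), without nano-TiO2 1 (-0.12) and without sham 2 and nano-TiO2 3 (-0.077). Transcripts called higher numbered 14 with library totals only, a scale on which 30.7% of all genes were called higher, and 3 with the stricter filter. The share of all transcripts called in these settings was not worked out. When each library was left out, 0 to 1 had changed usage. Of 1542 member bins tested, 203 were called higher and 81 lower, against 2790 and 10987 of all 245114 bins. With the replicate block 170 and 32 member bins were called (2075 and 7400 of all bins). With edgeR on recovered reads 272 and 1 were called (4283 and 446 of all bins). Leaving out each library gave 0 to 314 and 0 to 21 member bins, and 0 to 3150 and 0 to 11024 of all bins. The Tnni1 to Tnni3 difference kept its sign in every setting (-0.31 to -0.07 with libraries left out, -0.15 with the replicate block), as did the Ttn end ratio (0.15 to 0.28, and 0.20 with the block). The labels do not say whether equal replicate numbers pair libraries, which were treated as unpaired. Same-number correlations were -0.39, 0.02 and -0.08, and with 3 libraries per group they cannot decide it. The cause of these changes was not tested.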
